A study of Mus musculus with 12 samples.

Results

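Livers of mice on a diet of DJ526, a rice that makes its own resveratrol, were set against those of mice given resveratrol in a starch diet. Its members were the 3 arrays titled for the DJ526 rice and the 3 titled for resveratrol, 6 of the 12 arrays of the series, and the labels alone chose them. All mice were female C57BL/6N mice, an inbred laboratory strain, and liver RNA was taken after 6 months on the diet. RS mice ate the normal formula diet (NFD), whose carbohydrate was corn starch and sucrose, with resveratrol added. DJ526 mice ate the NFD with the rice DJ526 in place of corn starch and sucrose. DJ526 is a single line of the japonica rice Dongjin into which stilbene synthase of the peanut was transferred, so that the grain makes resveratrol. The 2 diets therefore differed in the carbohydrate, in the source of resveratrol and in the transferred gene together, and these cannot be told apart here. Ctrl mice (starch and sucrose alone) and DJ mice (Dongjin rice), 3 of each, entered the fit and serve as the background level. In a supplementary table of the study, the array IDs that GEO labels RS stand under DJ and those labelled DJ under RS. The GEO labels were followed here. By that table, the RS values here would be those of DJ mice. By the methods, mice lived 10 to a cage and whole cages were allotted at random to the groups, so diet and cage cannot be told apart. The labels give no cage for a mouse, so the p-values measure the spread between these mice only.

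The liver turns cholesterol into bile acids, breaks down drugs, plant compounds and steroids with cytochromes P450, and tags steroids, bile acids and polyphenols for excretion with sulfotransferases and glucuronosyltransferases. Resveratrol, a stilbene, is itself conjugated by such enzymes. The diets also differ in starch and sucrose, whose carbon feeds lipid synthesis in hepatocytes. These pathways are therefore described beside the genes with the largest differences.

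Levels are log2 signals relative to the 75th percentile of the array, so that 0 is the 75th percentile and differences are DJ526 minus RS. In all, 39429 probes were measured, and 28375 of them were well above background, by the scanner software's own flag, on all 6 arrays. Read by the brightest probe of a gene, 16032 of 20887 named genes met this. The arrays were alike in signal, with 76.0% to 80.8% of spots well above background on the 6 arrays. The hepatocyte markers were at the top of the range in both groups; albumin (Alb) read 9.19, 9.20 and 9.32 in RS and 9.01, 9.06 and 9.03 in DJ526. Arrays lay 4 to a slide. RS 1 and RS 2 shared slide 2 with 2 DJ mice, RS 3 shared slide 3 with all DJ526 mice, and slide 1 held the Ctrl mice and DJ 1. RS 3 stood apart from its own group. The SD of its log2 differences from RS 1 and RS 2, over probes well above background, was 0.539 and 0.514, against 0.376 between RS 1 and RS 2. From DJ526 1 to 3 on its slide, RS 3 differed with SDs of 0.514, 0.344 and 0.449.

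The DJ526 and RS livers differed little. No probe was called higher in DJ526 and 3 were called lower (limma, adjusted p under 0.05), 0.00761% of the probes tested, and 2 of these 3 were well above background on all 6 arrays. At an unadjusted p under 0.05 there were 926 probes higher (2.35%) and 1243 lower (3.15%). Among the 16032 genes well above background, 342 were higher (2.13%) and 471 lower (2.94%) at that level. The groups did not overlap for 836 higher genes (5.21%) and 1125 lower genes (7.02%). The median log2 difference of these genes was -0.0012, and from the 5th to the 95th percentile the differences ran from -0.36 to 0.32. A mean difference over 2-fold was found for 25 higher genes (0.156%) and 61 lower genes (0.38%).

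**Figure D1:**
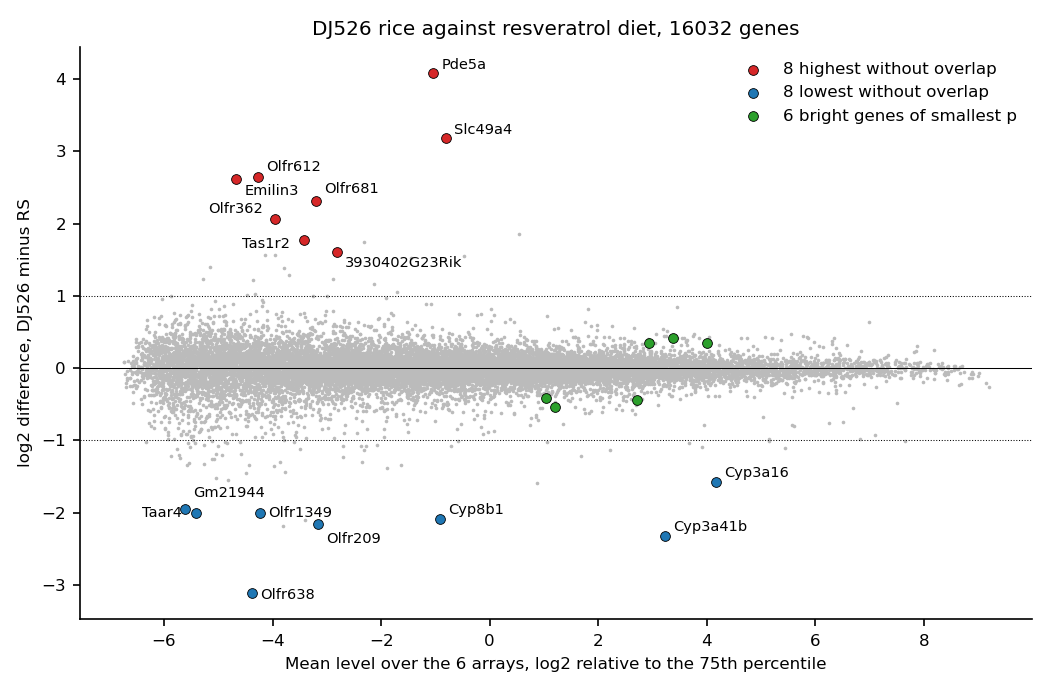
The log2 difference DJ526 minus RS (vertical) against the mean log2 level over the 6 arrays (horizontal) for 16032 genes well above background on all 6 arrays, with dotted lines at a 2-fold difference. Pde5a at 4.09 is the highest and Olfr638 at -3.11 the lowest, and most named genes with large differences are dim.

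The 3 called probes belong to receptor genes that liver is not known for. Olfr638 and Olfr209 are odorant receptors, the G protein-coupled receptors of the nose. Olfr638 read -3.07, -2.96 and -2.42 in RS 1 to 3 and -6.05, -6.46 and -5.28 in DJ526 1 to 3. All DJ526 mice were below all RS mice, and the Ctrl mice, at -3.05, -3.28 and -3.35, lay with the RS mice. Olfr638 fell by 3.11 ± 0.28 (SE, n = 3 against 3; limma, adjusted p = 0.0103). Olfr209 read -2.52, -2.29 and -1.45 in RS and -4.34, -4.19 and -4.19 in DJ526. It fell by 2.15 ± 0.24 (limma, adjusted p = 0.0262), and its Ctrl mean was -2.51 ± 0.19 (SD, n = 3). Gpr31b, a G protein-coupled receptor, read -6.30, -5.56 and -4.86 in RS. In DJ526 it was not well above background on any of the 3 arrays, at -8.90, -8.54 and -8.69. RS was at least 3.03-fold higher, a bound set by the lowest signal called well above background on each DJ526 array (limma, adjusted p = 0.0262). Its Ctrl mean of -5.52 ± 0.33 (SD, n = 3) was near that of RS. The DJ mice lay above the DJ526 mice as well, at -2.86, -2.83 and -3.21 for Olfr638, -2.29, -2.56 and -2.62 for Olfr209 and -5.22, -5.74 and -5.70 for Gpr31b. Removal of RS 2, of DJ526 1 or of the Ctrl and DJ arrays from the fit left no call. Removal of RS 3 gave 28 calls, 8 higher (0.0203%) and 20 lower (0.0507%). Slide as a fixed block, which sets the DJ526 mice against RS 3 alone, gave 6 higher (0.0152%) and 34 lower (0.0862%). The 3 genes were among the calls each time.

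The 3 called spots lay close together on the array, in rows 437, 454 and 491 of 532 and columns 1 to 8. Differences crowded in that part of the array. Of the probes in the last 20% of rows (row 426 and beyond), 7.64% were lower in DJ526 at an unadjusted p under 0.05 and 3.4% were higher, whereas in the first 60% of rows, taken 20% at a time, 1.58% to 1.93% were lower and 2.02% to 2.45% higher. Of the 43 genes more than 2-fold lower without overlap, 31 (72.1%) had their spot there, against 18.6% of all 16032 genes. The spread of a DJ526 array about the median of the 12 arrays was larger there as well, with SDs of 0.376, 0.332 and 0.328, against 0.268 to 0.275 in the middle 20%. With the probes of those rows left out, an alternative chosen after the values were seen, 0 of 31757 probes were called by limma. Of these probes 1323 (4.17%) had an unadjusted p under 0.05. The 3 called probes lay in the rows left out, so that fit could not keep their calls and is no test of array position. A correction by the median of each of 100 blocks of the array kept the 3 calls. The median difference in the blocks of these spots was only -0.021 and -0.011, and Olfr638 went from -3.11 to -3.06. A shift of medians cannot reduce the larger spread in those rows, so that correction is no test of array position either. The part of array position in these results was not tested.

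**Figure D2:**
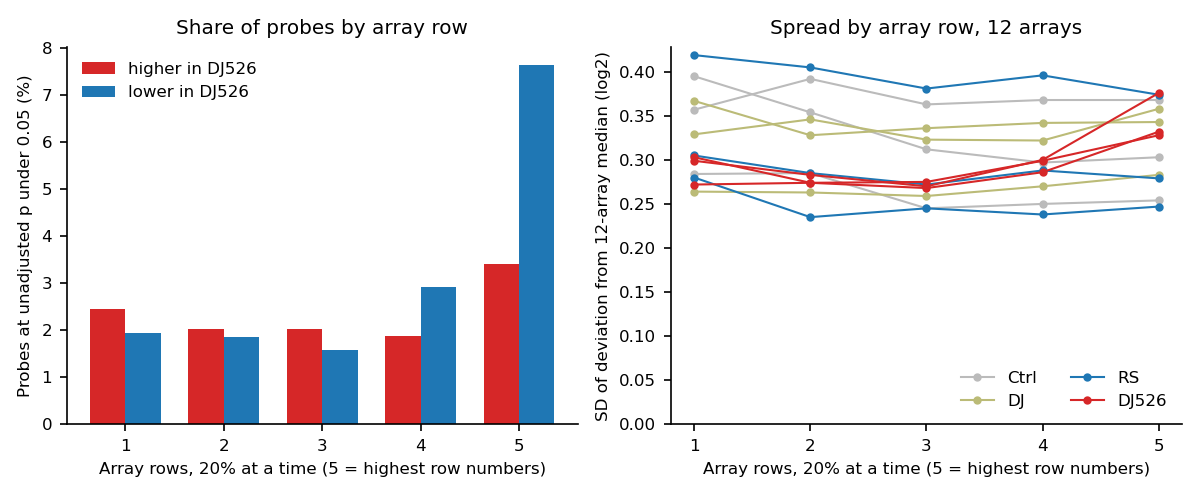
Left, the percentage of probes at an unadjusted p under 0.05 in each successive 20% of array rows, higher (red) and lower (blue) in DJ526; the last 20% holds 7.64% lower and 3.4% higher. Right, for each of the 12 arrays, the SD of the log2 deviation from the median of the 12 arrays in each 20%; the 3 DJ526 arrays (red) have their largest SDs in the last 20%, 0.376, 0.332 and 0.328.

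The largest differences upward were in genes that did not pass the test over all probes. Pde5a, the phosphodiesterase that breaks down cyclic GMP, read -3.74, -3.37 and -2.14 in RS and 0.98, 0.95 and 1.08 in DJ526. The groups lay far apart, with a difference of 4.09 ± 0.91 (SE; limma, adjusted p = 0.284). The Pde5a spot, at row 475 and column 9, lay in the last rows of the array, where differences crowded. After the correction by blocks of the array, which shifts medians only, the Pde5a difference was 4.14. The part of array position in it was not tested. Slc49a4, a member of a family of membrane transporters, read -2.77, -2.41 and -2.02 in RS and 0.51, 0.86 and 0.96 in DJ526, a difference of 3.18 ± 0.60 (SE; limma, adjusted p = 0.23). Against the RS array on its own slide, its difference was 2.79. For Slc49a4, slide as a fixed block gave 2.79 as well, and so did a fit with RS 1 and RS 2 left out and no block. All DJ526 mice were on slide 3, so both contrasts rested on RS 3 as the only RS mouse. The p-value of the fit with the block used the spread over all 12 arrays after slide was taken out, so it is not given. For Pde5a the slide block gave 3.15. Emilin3, an extracellular matrix glycoprotein, and Olfr612, an odorant receptor, were higher by 2.62 and 2.64 on the log2 scale. They were followed by the odorant receptors Olfr681 (2.31) and Olfr362 (2.06), the sweet taste receptor subunit Tas1r2 (1.78) and 3930402G23Rik (1.60). These 8 genes were picked among those without overlap at an unadjusted p under 0.05, so that the separation of the groups follows from the choice. None passed the test without the block (limma, adjusted p from 0.23 to 0.651). With the block the Olfr362 difference was 1.71, again against RS 3 alone.

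Several of these genes were not high in DJ526 alone. Pde5a read 1.19, 1.24 and 0.06 in the Ctrl mice and 0.98 in DJ 1, all on slide 1. It read -3.53 and -2.57 in DJ 2 and DJ 3, which shared slide 2 with RS 1 and RS 2. Mice of the DJ group, fed the same rice, thus differed by more than 3 on the log2 scale between slides. Slc49a4 was split the same way, at 0.38 in DJ 1 and at -2.61 and -2.15 in DJ 2 and DJ 3. Emilin3 read -3.52 in DJ 1 and -6.01 and -6.50 in the others of that group. Olfr612 read -3.95 in DJ 1 and -6.03 and -5.90 in DJ 2 and DJ 3. For Olfr681 these values were -2.62, -4.72 and -4.85, and for Olfr362 -3.14, -5.11 and -5.04. For 3930402G23Rik they lay closer, at -3.02, -3.61 and -3.90. RS 3, the array on slide 3 that was not of DJ526, was below the Ctrl mice for Pde5a, Slc49a4 and Emilin3, but was the highest of the RS mice for each of them. Tas1r2 was split in the DJ mice too, at -3.11, -4.61 and -5.93, but was low in the Ctrl mice, at -4.38, -4.79 and -4.99. It read -2.51, -2.72 and -2.34 in DJ526 and no higher than -3.11 in any other mouse. The part of the slide in these differences was not tested beyond the fits with slide.

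**Figure D3:**
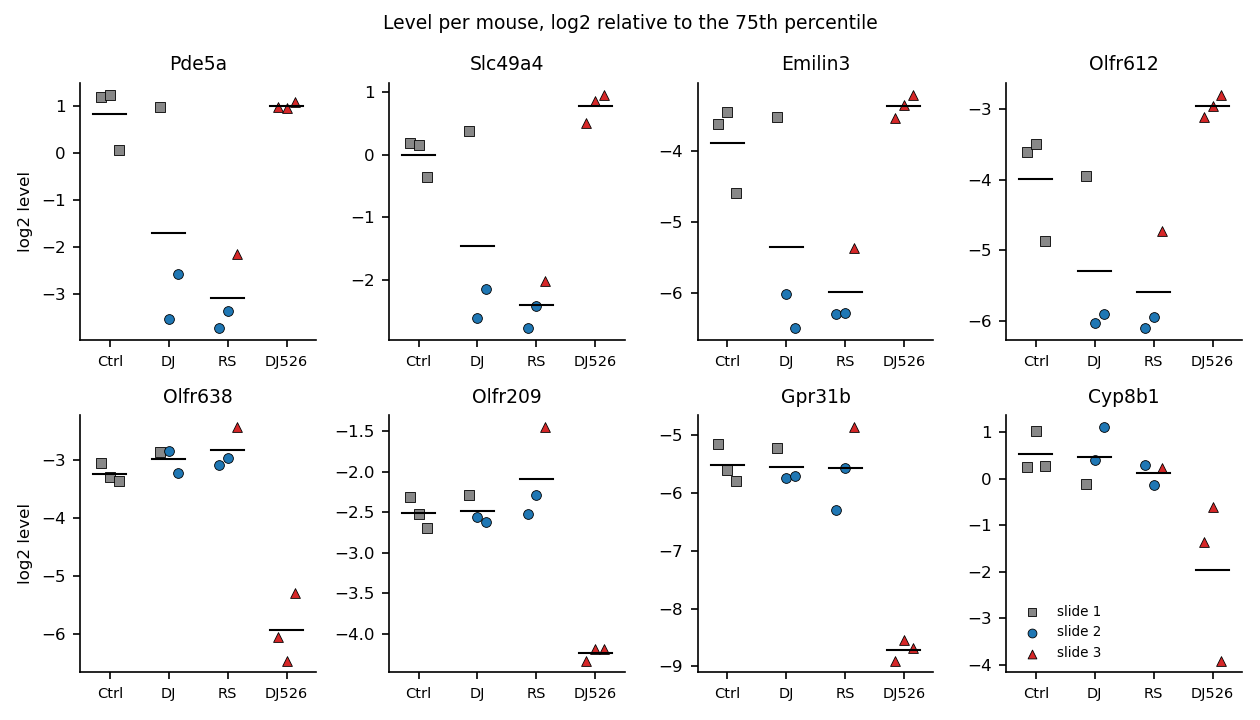
Log2 level relative to the 75th percentile (vertical, 1 scale per gene) in each of the 12 mice, with symbols for the slide and bars for group means. Pde5a, Slc49a4 and Emilin3 are high on slide 1 and in DJ526 and low on slide 2 and in RS 3, whereas Olfr638, Olfr209 and Gpr31b are low in the 3 DJ526 mice only.

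Bright genes moved less. Of the genes above the 75th percentile on all 6 arrays without overlap, those of smallest p were Zfpm1, a cofactor of GATA factors, Vapb, a protein that tethers the endoplasmic reticulum to other membranes, and Mepce, which caps 7SK RNA, on the high side. Zfpm1 read 3.16, 3.19 and 3.14 in RS and 3.60, 3.43 and 3.73 in DJ526, higher by 0.42 ± 0.09 (SE). Vapb was higher by 0.35 and Mepce by 0.35. On the low side were Arl6ip5 (-0.53), Chtf8 (-0.44) and Spata2 (-0.41). Arl6ip5 read 1.69, 1.41 and 1.31 in RS and 1.06, 0.84 and 0.93 in DJ526. All 6 were under 1.5-fold and none passed the test (limma, adjusted p from 0.254 to 0.32).

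Of the 8 genes with the lowest differences without overlap, Cyp3a41b, Cyp8b1 and Cyp3a16 encode cytochromes P450, and the others were Olfr638, Olfr209, the trace amine receptor Taar4 (-2.0), Olfr1349 (-2.0) and the predicted gene Gm21944 (-1.95). Olfr1349, at row 466, came nearest to the threshold (limma, adjusted p = 0.0628). In all, 12 of the 61 genes more than 2-fold lower and 5 of the 25 more than 2-fold higher were odorant, vomeronasal, trace amine or taste receptors, against 370 of the 16032. Of 292 odorant receptor genes well above background, 189 were above 0 and 103 below, with a median of 0.095. That direction was not kept by the normexp background (-0.0055), without RS 1 (-0.023) or against RS 3 alone (-0.35).

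The Cyp3a genes encode the P450 enzymes that oxidise many drugs and steroids, and are switched on by the nuclear receptors PXR and CAR. Cyp3a41b and Cyp3a16 are forms known from female and young mice. The promoters of 4 of them are shown because these genes lay lower together in DJ526. The sequences are from RefSeq (GRCm38.p6), 250 bases before and 50 after the start, 5′ to 3′ on the strand of the gene. Capitals mark the hexamers TGAACT and AGGTCA, or their reverse complements, to which nuclear receptors bind in pairs. Cyp3a41b is at chr5:145584681-145584980 (minus strand), Cyp3a16 at chr5:145469674-145469973 (minus), Cyp3a59 at chr5:146079008-146079307 (plus) and Cyp3a11 at chr5:145879805-145880104 (minus).
Cyp3a41b: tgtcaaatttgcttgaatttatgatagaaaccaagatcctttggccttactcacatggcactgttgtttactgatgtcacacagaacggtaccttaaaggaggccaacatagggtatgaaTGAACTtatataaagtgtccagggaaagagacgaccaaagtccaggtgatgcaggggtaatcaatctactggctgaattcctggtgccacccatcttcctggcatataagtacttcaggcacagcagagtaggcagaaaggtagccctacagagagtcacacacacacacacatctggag
Cyp3a16: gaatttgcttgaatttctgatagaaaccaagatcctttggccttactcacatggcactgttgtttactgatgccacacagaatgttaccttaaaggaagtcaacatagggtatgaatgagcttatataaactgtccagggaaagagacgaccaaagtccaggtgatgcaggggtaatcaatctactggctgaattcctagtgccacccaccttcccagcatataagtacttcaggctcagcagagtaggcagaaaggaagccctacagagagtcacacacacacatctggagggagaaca
Cyp3a59: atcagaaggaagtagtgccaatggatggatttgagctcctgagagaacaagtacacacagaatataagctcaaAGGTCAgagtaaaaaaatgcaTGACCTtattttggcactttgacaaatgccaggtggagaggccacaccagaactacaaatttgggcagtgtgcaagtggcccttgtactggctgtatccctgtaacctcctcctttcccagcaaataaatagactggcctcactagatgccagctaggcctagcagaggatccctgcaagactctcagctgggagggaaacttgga
Cyp3a11: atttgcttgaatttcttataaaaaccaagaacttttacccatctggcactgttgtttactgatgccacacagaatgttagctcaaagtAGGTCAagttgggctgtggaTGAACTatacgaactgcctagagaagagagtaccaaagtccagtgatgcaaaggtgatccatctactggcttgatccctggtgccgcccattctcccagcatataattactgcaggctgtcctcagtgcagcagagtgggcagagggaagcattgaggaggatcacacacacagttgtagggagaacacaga

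Of 9 Cyp3a promoters in the RefSeq table, 7 held at least 1 of the hexamers on either strand (the hexamers do not overlap one another in these promoters), against 27.7% of all 32851 promoters of this length. Cyp3a16, which held none, was among the genes with the largest difference, and Cyp3a41b held TGAACT at position -130 from the start. The promoters formed 2 groups, apart from that of Cyp3a13, which shared 51.2% to 56.9% of its bases with the others. Cyp3a11, 16, 41a, 41b and 44 shared 71.0% to 97.3% of their bases with each other, Cyp3a25, 57 and 59 shared 89.7% to 95.7%, and pairs between the groups shared 53.4% to 57.0%. A match of letters is a description and not a binding site.

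All 8 Cyp3a genes measured were well above background, and all 8 differences were below 0, with a median of -0.77, against 49.7% of all genes above 0. None was called by limma and 4 of the 8 had an unadjusted p under 0.05, all lower, against 2.94% of all genes. Cyp3a41b read 4.87, 4.58 and 3.72 in RS and 2.99, 1.88 and 1.35 in DJ526, a difference of -2.32 ± 0.57 (SE; limma, adjusted p = 0.363). Every DJ526 mouse was below every RS mouse, as the choice of named genes required, and the Ctrl mean of 3.40 ± 0.90 (SD, n = 3) lay between the groups. The DJ mice differed by slide, at 3.40 in DJ 1 on slide 1 and 5.09 and 4.50 in DJ 2 and DJ 3 on slide 2. Cyp3a16 read 5.48, 5.13 and 4.22 in RS and 3.95, 3.20 and 2.98 in DJ526 (difference -1.57 ± 0.41, SE; limma, adjusted p = 0.431). It read 4.23 in DJ 1 and 5.55 and 4.99 in DJ 2 and DJ 3. Cyp3a59 (-0.79) did not overlap between the groups either, and Cyp3a11, the most abundant of the family, was lower by 0.75 with an overlap of DJ526 1 and RS 3. Cyp3a44 differed by -1.02, whereas Cyp3a57 (-0.10), Cyp3a25 (-0.08) and Cyp3a13 (-0.06) lay near 0. The promoters of Cyp3a57 and Cyp3a25 belong to the same group as that of Cyp3a59. The family stayed below 0 under each scaling, and its median was -0.33 against RS 3 and -0.99 against RS 1 and RS 2. Of the 8 genes, 1 was above 0 with slide as a fixed block and 2 were above 0 without RS 1. What share of the Cyp3a differences goes with the slide was not tested beyond the fits with slide. The spot of Cyp3a41b was in the last 20% of array rows and those of the other 7 were not. The probes of these close copies may share targets, so that the single genes are uncertain. PXR (Nr1i2) and CAR (Nr1i3) themselves differed by -0.28 each (limma, adjusted p = 0.955 and 0.986).

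The sulfotransferases lay lower as a group as well. Of 18 members well above background 15 were below 0, with a median of -0.57, against 49.7% of all genes above 0, and 2 were lower at an unadjusted p under 0.05 (2.94% of all genes). Of the Sult2a genes, which sulfonate steroids and bile acids, 7 of 7 were below 0, with a median of -1.01. Sult2a1 read 6.37, 5.38 and 5.20 in RS and 4.08, 6.15 and 3.70 in DJ526. DJ526 2 lay among the RS mice, and DJ526 1 and DJ526 3 lay below them. Sult2a4 read 5.0, 3.81 and 3.78 in RS and 2.45, 4.91 and 2.14 in DJ526, with the same mouse apart (difference -1.03 ± 1.37, SE; limma, adjusted p = 0.986). Sult2a3 (-1.13), Sult2a6 (-0.79) and Sult2a2 (-0.78) followed that pattern. In the Ctrl mice Sult2a1 averaged 2.39 ± 0.75 and Sult2a4 0.22 ± 0.74 (SD, n = 3), below both groups, whereas the DJ mice spread widely, at 4.78 ± 3.10 and 3.16 ± 3.47 (SD, n = 3). Sult2a7 alone of the family did not overlap, at -0.10, 0.08 and -0.50 in RS and -0.67, -1.46 and -1.61 in DJ526 (limma, adjusted p = 0.931). Sult3a2, which is dim at -4.73 to -6.69, differed by -1.12. The Sult2a median was -0.50 against RS 3 and -1.23 against RS 1 and RS 2. The Sult2a genes are near copies of each other so that their probes may take up one another's transcripts.

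**Figure D4:**
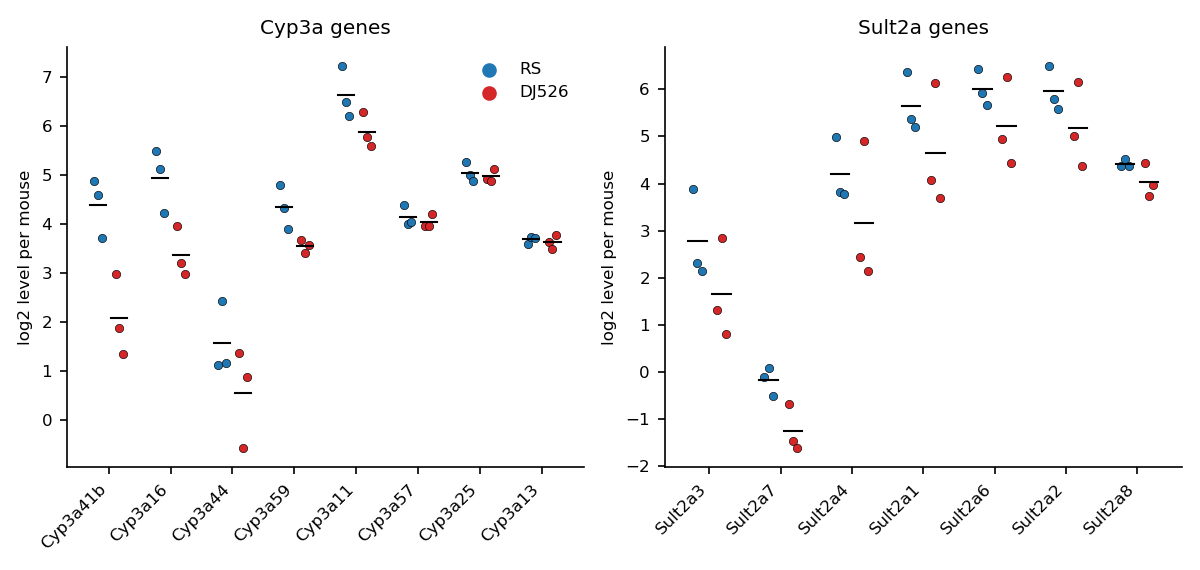
Log2 level per mouse (points) and group means (bars) of the 8 Cyp3a genes and the 7 Sult2a genes, RS in blue and DJ526 in red, ordered by the difference. Cyp3a41b, Cyp3a16 and Cyp3a59 do not overlap between the groups, and in most Sult2a genes DJ526 2 lies with the RS mice.

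Among genes of bile acid synthesis and transport, the largest difference was in Cyp8b1, the enzyme that makes cholic acid rather than chenodeoxycholic acid. It read 0.30, -0.14 and 0.22 in RS and -1.35, -0.61 and -3.91 in DJ526. All DJ526 mice were below the RS mice and below the Ctrl mean of 0.52 ± 0.44 (SD, n = 3), and DJ526 3 was far below the others of its group. The difference was -2.08 ± 0.67 (SE; limma, adjusted p = 0.601), and it was -2.17 against RS 3. Cyp7a1, the rate-limiting enzyme of bile acid synthesis, read 1.12, 0.98 and 1.64 in RS and 0.32, 0.57 and 0.69 in DJ526, without overlap, a difference of -0.72 ± 0.41 (SE; limma, adjusted p = 0.979). Abcb11, the bile salt export pump, was higher without overlap, at 4.90, 5.05 and 5.02 in RS and 5.34, 5.33 and 5.56 in DJ526 (0.42 ± 0.15, SE; limma, adjusted p = 0.715). Klb (0.38), the coreceptor for FGF15, and Nr5a2 (0.29), a nuclear receptor that drives bile acid genes, were higher without overlap too. Slco1a1, a bile acid and organic anion uptake carrier, differed by -0.73 with overlap. Of the 24 members, 13 were above and 11 below 0, the median was 0.0042, and 3 were higher (2.13% of all genes) and 1 lower (2.94% of all genes) at an unadjusted p under 0.05. The groups did not overlap for 4 higher and 3 lower members, against 5.21% and 7.02% of all genes.

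Resveratrol is best known for its link to sirtuins, AMPK and mitochondria, and these lists showed small differences. Of 25 sirtuin and NAD genes, 10 were above and 15 below 0 (median -0.050), and 1 was lower at an unadjusted p under 0.05 (2.94% of all genes). Ppargc1a, a coactivator of mitochondrial and gluconeogenic genes, read 0.68, 0.67 and 1.38 in RS and 1.11, 1.77 and 1.47 in DJ526, higher by 0.54 ± 0.24 (SE; limma, adjusted p = 0.9) and by 0.07 against RS 3. Of 50 respiratory chain subunits 42 were below 0, with a median of -0.062, and of 23 antioxidant enzymes 19 were below 0, with a median of -0.079. Of all genes 49.7% were above 0. The mice overlapped in both lists. The median centred level of the respiratory chain was 0.052, -0.035 and 0.078 in RS 1 to 3 and -0.129, 0.058 and -0.021 in DJ526 1 to 3. For the antioxidant enzymes it was 0.078, 0.017 and 0.004 in RS and -0.088, 0.025 and -0.010 in DJ526. The differences were small, with Sdhc, a subunit of complex II, lowest at -0.19 among the former. Among the latter, Gpx6 was lowest at -0.43, and Prdx6, an abundant peroxiredoxin, was at -0.17. Both medians stayed below 0 in every alternative. The glucuronosyltransferases (15 genes, median -0.0074), the glutathione S-transferases (20 genes, median 0.0080) and the NRF2 pathway (17 genes, median -0.016) lay near 0, and so did the AhR and Cyp1 genes (10 genes, median 0.021).

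Lipogenic genes varied between mice of the same diet. De novo lipogenesis, the making of fatty acids from sugar, had 8 of 17 members above 0 and a median of -0.031, which was -0.57 against RS 3 and 0.26 against RS 1 and RS 2. The median centred level of the list was -0.79 in RS 1, 0.10 in RS 2 and 0.56 in RS 3, and -0.49, 0.67 and 0.029 in DJ526 1 to 3. Thus RS 1 and DJ526 1 were low and RS 3 and DJ526 2 high. Scd1, the stearoyl-CoA desaturase, read 5.03, 7.33 and 7.63 in RS and 6.77, 7.81 and 7.31 in DJ526. Elovl6, a fatty acid elongase, read 3.41, 5.62 and 5.79 in RS and 3.55, 5.75 and 4.37 in DJ526. Cholesterol synthesis, driven by SREBP2, had 20 of 24 members above 0 and a median of 0.17, with none at an unadjusted p under 0.05. That direction depended on the RS mouse, with a median of -0.43 against RS 3 and 0.42 against RS 1 and RS 2. Sqle, the squalene epoxidase, read 2.01, 3.48 and 4.58 in RS and 2.78, 4.43 and 3.84 in DJ526, and Stard4 differed by 0.37. Glycolysis (17 genes, median -0.00094), fructose handling (8 genes, median -0.028) and gluconeogenesis with glycogen (15 genes, median 0.024) lay near 0.

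The interferon-stimulated genes, the antiviral program of most cells, leaned low, with 32 of 34 members below 0 and a median of -0.29. Of these, 3 were lower at an unadjusted p under 0.05, against 2.94% of all genes, and none was called. Ifi44 read -0.26, -0.51 and -1.16 in RS and -1.30, -1.33 and -1.47 in DJ526, lower by 0.72 ± 0.27 (SE; limma, adjusted p = 0.773). The difference was between DJ526 and the 2 RS mice of slide 2 (median -0.44), whereas against RS 3 the median was 0.086. Gbp3, a guanylate-binding protein, showed this, at 1.52 and 1.42 in RS 1 and RS 2, 0.64 in RS 3 and 0.85, 0.36 and 0.71 in DJ526.

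Clock genes and growth hormone targets held single genes of note. Rora, a nuclear receptor that activates Bmal1, read 0.24, 0.07 and 0.60 in RS and 0.65, 0.91 and 0.88 in DJ526, higher by 0.51 ± 0.15 (SE; limma, adjusted p = 0.499). Nr1d1, the repressor REV-ERB alpha, differed by 0.73, but DJ526 3 alone carried it, at -0.59 against -1.82 and -1.84 in the other DJ526 mice and -2.30 to -1.94 in RS. The time of day at sacrifice is not given in the sources used here. Of 26 genes of the growth hormone and STAT5 axis 16 were below 0 (median -0.14), with 1 higher and 3 lower at an unadjusted p under 0.05, against 2.13% and 2.94% of all genes. Mup20, a major urinary protein, read 6.28, 6.01 and 5.67 in RS and 5.70, 4.23 and 4.74 in DJ526 (difference -1.10), and Serpina12, the adipokine vaspin, differed by -1.22.

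Other cell types in the tissue moved between mice. B cell markers, 8 of 9 well above background, had a median difference of 0.49, but their median centred level was 0.56, -0.16 and -1.12 in RS 1 to 3 and 1.36, 0.14 and -0.75 in DJ526 1 to 3, so that the groups overlapped. Cd79b, a chain of the B cell receptor, read 0.49, -0.17 and -1.20 in RS and 1.68, 0.15 and -0.75 in DJ526. Without RS 3 the median was -0.030. Erythroid genes, 8 of 12 well above background, were highest in DJ526 2, with Hba-a1 at 7.05 against 5.37 to 6.16 in the other 5 mice. Markers of Kupffer cells (14 genes, median 0.074), endothelial cells (11 genes, median 0.052) and neutrophils (7 genes, median -0.065) lay near 0, and of the stellate cell and fibroblast markers 12 of 13 were below 0 (median -0.11, and 0.047 against RS 3). In bulk tissue fewer cells of a type and less RNA per cell cannot be told apart.

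**Figure D5:**
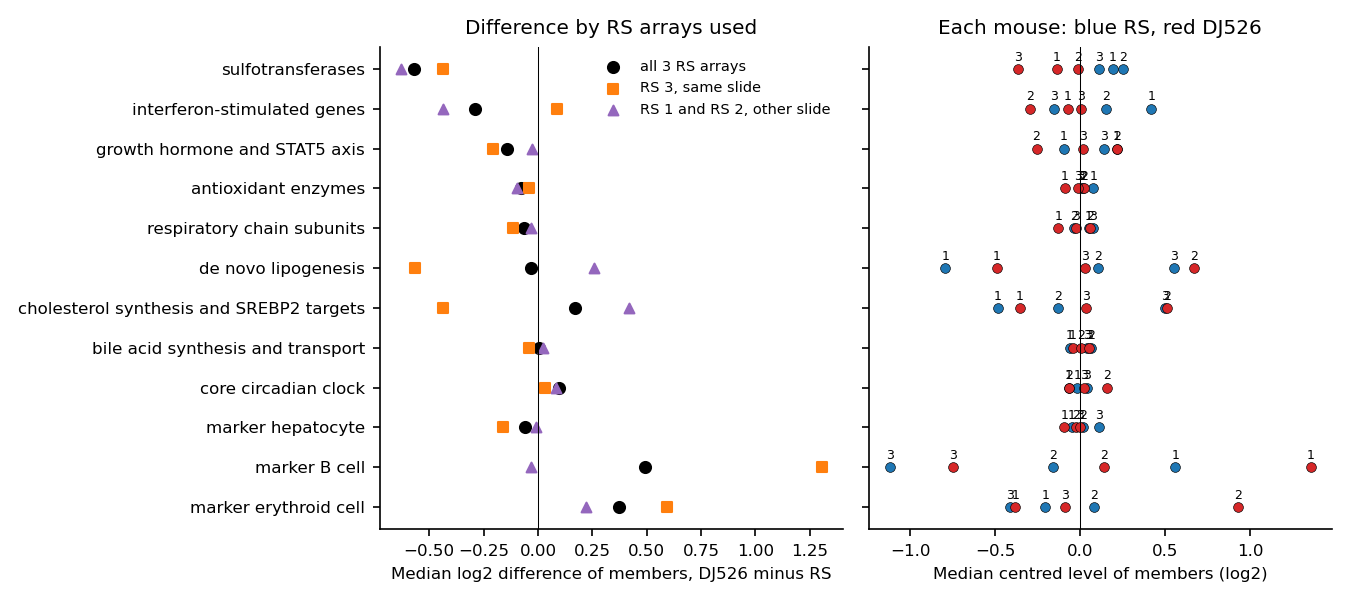
Left, the median log2 difference DJ526 minus RS over the members of 12 gene lists that were well above background, against all RS mice (black), RS 3 on the same slide (orange) and RS 1 and RS 2 on the other slide (violet); cholesterol synthesis and interferon-stimulated genes change sign with the RS mouse. Right, the median centred log2 level of each list in each mouse, RS in blue and DJ526 in red with replicate numbers; for lipogenesis, RS 1 and DJ526 1 are low and RS 3 and DJ526 2 high.

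Of the 12 genes that the study had followed by qRT-PCR, a list chosen on these samples and so not independent evidence, 8 were well above background on all 6 arrays. Sult2a1, Sult2a4, Sult2a6, Pde5a, Slc49a4 and Gpr31b are described above, and of the list Gpr31b alone was called. Sub1, a transcription coactivator, read 4.40, 4.65 and 4.74 in RS and 4.43, 4.53 and 4.57 in DJ526. This was the brightest of 3 Sub1 probes, and the study lists its Sub1 primers under another transcript record. The same was so for Spock1, read by the brightest of 2 probes. Spock1 (0.27), Duoxa1 (0.38), Ap3b2 (0.22), Pnoc (-0.33) and Csf3 (-0.58) did not pass the test (limma, unadjusted p from 0.176 to 0.683), and 3 of these, Pnoc, Ap3b2 and Csf3, were not well above background on all 6 arrays.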

How the data were processed

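Liver RNA of 12 mice was labelled with Cy3 and hybridised to 1-colour Agilent 4x44K arrays. The authors deposited, per array, the intensity of each spot from Feature Extraction 11.5.1.1 (per the file headers, design build mm9) and a table of normalized intensity values, each the processed signal times 1 factor per array (0.959 to 1.08). The labels give Trizol and the methods another kit for RNA extraction. Groups came from the labels.

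The processed signal, background-subtracted by the software, was averaged over the spots of a probe without control spots or spots with outlier flags, and log2 of the array's 75th percentile was subtracted from its log2; 68 probes lacked a value on some array. Names came from the RefSeq accession for 27508 probes and from the study's primer table for 3; 11918 had none, and a gene was read by its brightest probe. limma 3.58.1 (R 4.3.3) was fitted to the 12 arrays with 1 mean per group and a variance trend, the contrast was DJ526 minus RS, and Benjamini-Hochberg adjustment ran over all probes with a threshold of 0.05. This replaced the methods' unpaired t-test, which was run as an alternative. The fit was tested on simulated data for this contrast over 39361 probes, and 56.5%, 91% and 98% of 200 changes of 1, 2 and 3 on the log2 scale were recovered. These shares describe the simulated data only. In the measured data Pde5a and Slc49a4 differed by 4.1 and 3.2 on the log2 scale and were not called. Recovery under the differences seen between slides and array rows was not tested. With 3 arrays a group, the number of arrays limits the precision.

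Genes named were the called probes, the 8 highest and 8 lowest differences without overlap at an unadjusted p under 0.05 among genes well above background on all 6 arrays, the 6 of smallest p above the 75th percentile, the 5 largest differences, up to 4 leading members of each list described and the 12 qRT-PCR genes. Further genes were named for the function of a list after their values were seen. The comparison, its members and the 47 gene lists were chosen with earlier results of these data known. Lists are described by counts and medians with no test. Alternatives covered the background, scaling, array position, filters, variance prior, slide, replicate number, test and each mouse left out. Promoters were compared by global alignment. Python 3.11.15, numpy 2.4.6, pandas 2.3.3 and matplotlib 3.10.9 were used.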

Additional observations from a re-analysis of the deposited data

How the results depend on the processing

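The count of 3 called probes, all lower, was kept by quantile normalization, by the 75th percentile of detected probes, by the deposited table, by the local position correction, with flagged spots kept and with slide as a random block. It was 1 with the normexp background and 1 without the variance trend, and 0 with the 6 arrays alone and with the methods' t-test after Benjamini-Hochberg, which gave 2417 probes unadjusted. It was 7 over probes well above background on all 6 arrays and 8 over those well above it in every array of a group, all lower. With slide as a fixed block, which takes RS 3 as the reference, it was 40 (6 higher, 34 lower), on that slide alone 33 (4 higher, 29 lower), and with the local correction added 32 (6 higher, 26 lower, 3325 unadjusted); the last, and the fit without the last rows of the array (0 calls, 1323 unadjusted), were chosen after seeing the data. The calls without RS 3 and those with the slide block shared 3 probes of 28 and of 40. With each mouse left out in turn, calls ran from 0 to 28, of which 0 to 8 were higher and 0 to 20 lower, and the unadjusted count ran from 1609 to 3842. Replicate numbers did not pair the mice: same-numbered mice correlated at 0.258, -0.272 and -0.050 in their deviations, and not every mouse correlated best with its own number. The replicate block left 0 calls in either direction.

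Of the 32 genes named beside the lists, those that changed sign were uncalled qRT-PCR genes. Duoxa1 was at -0.42 with the slide block, -0.42 with RS 1 and RS 2 left out and no block, and -0.33 with the local correction added to the block. Ap3b2 was at -0.64, -0.64 and -0.56 in those fits, -0.029 with normexp, and -0.093 with the random block, and ran from -0.00136 without RS 2 to 0.65 without RS 3. Spock1 was at -0.080, -0.080 and -0.019. Pnoc ran from -1.16 without RS 1 to 0.33 without RS 2, and Csf3 from -1.01 without DJ526 3 to 0.046 without DJ526 2. Of the 47 list medians, 18 changed sign with slide as a fixed block, 12 with slide as a random block and 4 to 7 with another background or scaling. With each mouse left out in turn, from 4 (without RS 2) to 16 (without RS 1) changed sign. Signal over background limits the dim genes: 4 of the qRT-PCR genes were not above it on all 6 arrays.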
